A study of Mus musculus with 9 samples.

Results

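The SRP and Sec61 entry genes of the secretory pathway were followed in RNA-Seq data of mouse embryonic fibroblasts (MEFs), which are fibroblasts cultured from mouse embryos. They comprise 10 genes, *Srp9*, *Srp14*, *Srp19*, *Srp68*, *Srp72*, *Sec61a1*, *Sec61b*, *Sec61g*, *Ssr1* and *Ssr2*. They were taken by gene name, and each was among the 15184 genes of the deposited table. The study set out to raise *Hnrnpk*, which encodes the RNA-binding protein HNRNPK, with the synergistic activator mediator (SAM) system, in which a guide RNA and an inactive Cas9 bring transcriptional activators to a gene. There were 3 libraries of MEFs with the genotype label Empty vector and 6 labelled Hnrnpk_SAM, 3 of line SAM1 and 3 of line SAM2. By the methods, all were wild-type MEFs given the SAM components by lentivirus and selected with blasticidin and hygromycin, the control carried a nontargeting guide in that vector, and separate guides served for *Hnrnpk*. The methods print 1 sequence for both the second *Hnrnpk* guide and the nontargeting guide, so the guide of the control is uncertain. The labels do not give the guide of each line, and nothing says that libraries of a line came from separate cultures, so p-values measure the spread between libraries, which may be technical.

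*Hnrnpk* itself had normalized counts of 25058, 26098 and 26164 in Empty vector, 24102, 24045 and 23619 in SAM1, and 26608, 26859 and 26221 in SAM2. In the limma test its log2 fold change was -0.11 in SAM1 (adjusted p = 0.00252) and 0.044 in SAM2 (adjusted p = 0.159). The count of the targeted gene therefore did not follow the label Hnrnpk_SAM, and every direction given here is that of the libraries labelled SAM1 or SAM2. Reads on the listed genes numbered 41759636 to 49026626 in the 8 libraries in which they could be recovered. The fibroblast markers were all listed (9 of 9), with a summed normalized count of 639019 to 685122 in Empty vector, 546466 to 549374 in SAM1 and 700585 to 721027 in SAM2. Single fibroblast markers went both ways, with *Dcn* at 23.0% of Empty vector in SAM1 and 21.5% in SAM2 and *Pdgfrb* at 191% and 145%. Markers of other cell types were higher in SAM1 in sum. The 4 listed of 5 endothelial markers summed to 301.4 to 357.0 in Empty vector, 4613 to 4988 in SAM1, where nearly all of it was *Kdr*, and 637.9 to 689.3 in SAM2, and *Emcn* was not listed. Against that rise, *Cdh5* had means of 77.6, 64.7 and 51.2. The 4 listed of 6 epithelial markers summed to 2247 to 2427, 7209 to 7734 and 2832 to 2918, and *Epcam* and *Krt18* were not listed. The epithelial rise in SAM1 was mostly *Cldn4*, which was lower in SAM2 (means of 365.8, 3691 and 211.1). The 4 listed of 6 neural markers summed to 3188 to 3415, 9481 to 9605 and 8831 to 9037, without *Sox10* and *Gfap*. *Nes* made up most of that sum (means of 1960, 8134 and 7735), and *Map2* went the other way (1011, 483.2 and 567.7). The 2 listed of 6 haematopoietic markers summed to 529.4 to 639.4, 753.5 to 800.1 and 652.3 to 689.3, without *Ptprc*, *Adgre1*, *Hbb-bs* and *Laptm5*. These 2 went opposite ways in SAM2, with *Cd68* higher (means of 375.1, 527.3 and 564.0) and *Csf1r* lower (224.8, 251.6 and 111.4). The part of these other cell types in the results was not tested. In bulk RNA, fewer cells of a type and less RNA per cell cannot be told apart.

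Many proteins that are secreted or set into membranes begin with a signal sequence, which the signal recognition particle (SRP) binds as it leaves the ribosome. SRP slows translation, brings the ribosome to its receptor on the endoplasmic reticulum (ER) and hands the chain to the Sec61 channel, through which it enters the ER. The translocon-associated protein (TRAP) complex sits beside the channel and helps a subset of chains to enter. Fibroblasts secrete large amounts of collagen and other matrix proteins by this route.

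In each line, 7 of the 10 genes passed the test against Empty vector, 1 higher and 6 lower. *Srp9*, *Srp14*, *Srp68* and *Sec61g* fell in both lines, *Sec61a1* rose in both, *Srp72* and *Ssr2* fell in SAM1, and *Sec61b* and *Ssr1* fell in SAM2. The largest difference was that of *Srp9* in SAM2, at 58.3% of Empty vector, and the other called genes were between 73.9% and 113%. These counts stood against 74.3% of all 15184 genes called in SAM1 (37.3% higher, 36.9% lower) and 70.5% in SAM2 (35.2% higher, 35.3% lower), so the share of members called was near that of all genes. The same number of members, 7, had groups that did not overlap in each line, against 74.4% and 73.5% of all genes. Members had a median log2 fold change of -0.18 in SAM1 and -0.17 in SAM2, where the full table gave 0.009 and -0.001. The 2 comparisons share the Empty vector libraries. Genes called lower in both lines were 4 of the 10 members and 26.4% of all genes, and genes called higher in both were 1 of the 10 and 25.9%. Quantile normalization made the split 2 higher and 5 lower in SAM1 and 3 higher and 5 lower in SAM2. Without Empty vector replicate 1 and SAM1 replicate 2, 9 members were called in SAM1 and 6 in SAM2.

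**Figure D1:**
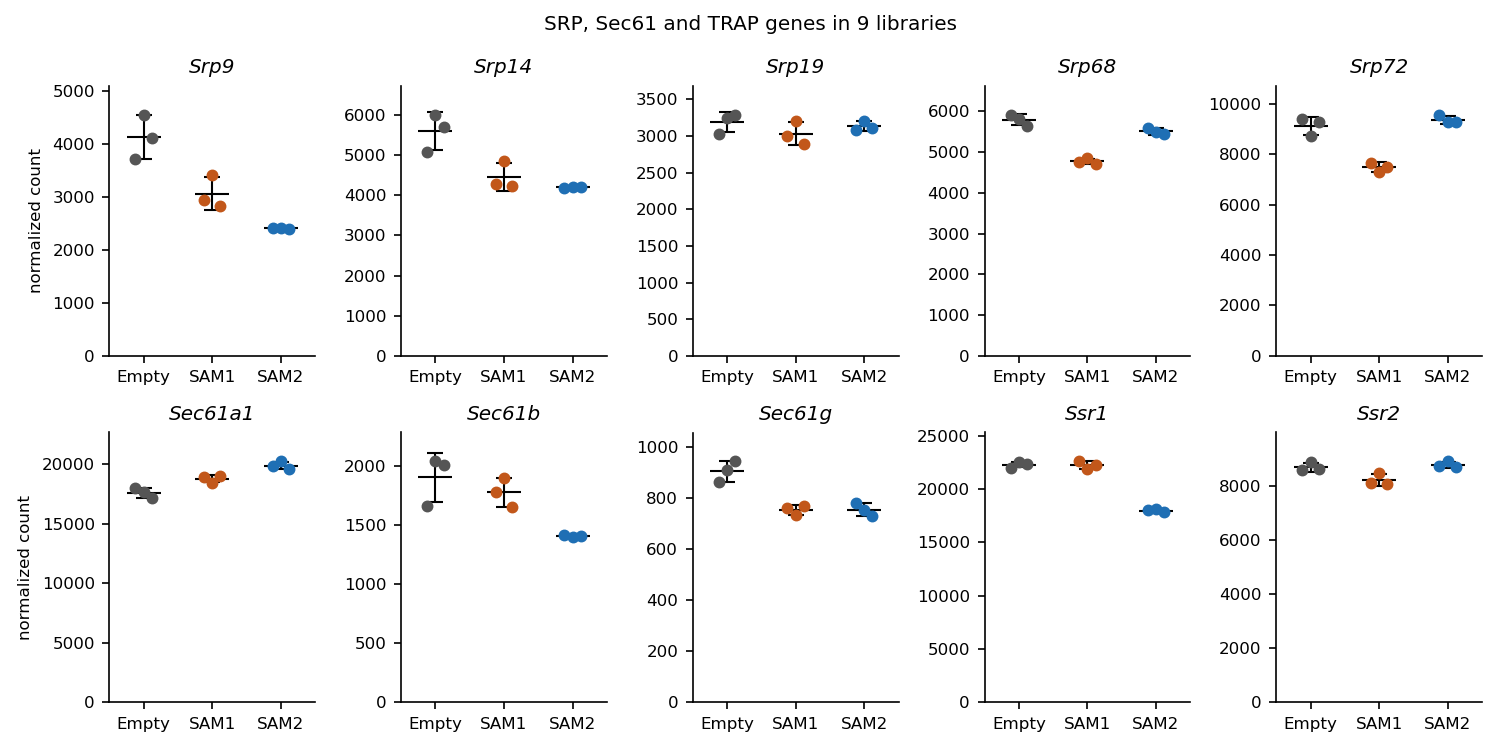
Normalized count (y axis, from 0) of each of the 10 genes in the 3 libraries of Empty vector, SAM1 and SAM2 (points), with the mean and SD of each group (bars). *Srp9* is at 3729 to 4556 in Empty vector, 2829 to 3428 in SAM1 and 2402 to 2417 in SAM2, while *Srp19* overlaps in all groups.

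The promoter windows of 3 of the genes that fell in both lines are shown because these members moved together and RefSeq windows for them were at hand (*Srp68*, the other such member, was not in the window table, and 6 of the 10 members were). Each is 300 bases, 250 before and 50 after the RefSeq start, written 5′ to 3′ on the strand of the gene. The RefSeq table is of GRCm38.p6, and each window was found once on its chromosome in GRCm39, at chr1:181952052-181952351 (plus strand) for *Srp9*, chr2:118310128-118310427 (minus strand) for *Srp14* and chr11:16458435-16458734 (minus strand) for *Sec61g*. Capitals mark matches, on either strand, to GGGCGG (the GC box), to CCAAT, the box of that name, or to GCATGCG (the NRF1 core).
Srp9: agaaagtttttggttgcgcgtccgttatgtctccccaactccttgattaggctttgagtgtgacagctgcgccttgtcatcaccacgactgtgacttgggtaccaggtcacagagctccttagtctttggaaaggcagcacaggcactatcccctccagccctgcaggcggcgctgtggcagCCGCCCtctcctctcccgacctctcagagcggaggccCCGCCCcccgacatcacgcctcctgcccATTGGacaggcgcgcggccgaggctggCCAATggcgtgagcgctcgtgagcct
Srp14: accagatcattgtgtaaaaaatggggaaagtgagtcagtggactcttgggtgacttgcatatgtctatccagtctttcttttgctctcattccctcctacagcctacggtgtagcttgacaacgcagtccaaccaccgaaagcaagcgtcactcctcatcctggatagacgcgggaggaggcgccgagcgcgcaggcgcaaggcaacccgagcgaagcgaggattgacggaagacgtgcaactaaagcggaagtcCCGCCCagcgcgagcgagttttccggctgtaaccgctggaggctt
Sec61g: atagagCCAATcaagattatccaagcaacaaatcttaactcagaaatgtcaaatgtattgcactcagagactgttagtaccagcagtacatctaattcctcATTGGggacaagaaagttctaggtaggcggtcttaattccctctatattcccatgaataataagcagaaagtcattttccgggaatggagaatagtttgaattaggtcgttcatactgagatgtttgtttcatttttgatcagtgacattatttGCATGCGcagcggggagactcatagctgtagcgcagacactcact
The *Srp9* window held 2 GC boxes, at -68 and -31 from the start, and 2 CCAAT boxes, at -3 and 25, and *Srp14* a single GC box at 6. *Sec61g* held 2 CCAAT boxes, at -244 and -149, and the NRF1 core at 6. No match in these windows overlapped another. Among the 6 member windows, 4 held the GC box, 2 the CCAAT box and 1 the NRF1 core, and of all 32851 windows 35.7%, 37.4% and 3.58% did. The E box CACGTG was in 1 member window and 7.15% of all, and the ETS core CCGGAAG in 1 and 8.86%. No member window held the CRE core TGACGTC, in 3.21% of all, or the letters TATAAA, in 13.6%. The base composition of the 3 windows also differed, with a GC content of 62.3% for *Srp9*, 55.7% for *Srp14* and 39.7% for *Sec61g*, and a median of 52.7% over all windows. None of the motifs searched was in all 3 of the windows.

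SRP9 and SRP14 form the heterodimer of the SRP Alu domain, which slows the ribosome. *Srp9* (chromosome 1, 181952302 to 181960690, 3 exons in the canonical transcript) had normalized counts of 3729, 4556 and 4120 in Empty vector, 2949, 3428 and 2829 in SAM1, and 2417, 2412 and 2402 in SAM2. Every SAM1 library lay below every Empty vector library, and every SAM2 library below every SAM1 library. The log2 fold change was -0.43 (standard error (SE) 0.072, adjusted p = 0.000115 from limma) in SAM1 and -0.77 (SE 0.072, adjusted p = 5.19e-07 from limma) in SAM2, and the lines differed by -0.34 (SAM2 minus SAM1, adjusted p = 0.00112 from limma). Of all genes, 79.9% had a smaller change in size in SAM2 and 55.3% in SAM1. *Srp14* (chromosome 2, 118303477 to 118310192, 5 exons) was at 5077, 5994 and 5694 in Empty vector, 4283, 4851 and 4233 in SAM1, and 4180, 4201 and 4207 in SAM2. Both lines lay below Empty vector without overlap, and the SAM2 libraries lay just below those of SAM1. The log2 fold change was -0.33 (SE 0.059, adjusted p = 0.000227 from limma) in SAM1 and -0.41 (SE 0.059, adjusted p = 3.37e-05 from limma) in SAM2. The difference between the lines was -0.084, with a 95% interval from -0.21 to 0.044 (adjusted p = 0.237 from limma). The partners thus fell together in each line, *Srp9* further than *Srp14* in SAM2, a contrast between the genes that was not itself tested.

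SRP19, SRP68 and SRP72 belong to the S domain of SRP, the end that carries the signal-binding subunit SRP54. SRP19 helps to fold the SRP RNA so that SRP54 can bind, and SRP68 and SRP72 form a heterodimer on the same RNA. *Srp19* (chromosome 18) had counts of 3033, 3244 and 3289 in Empty vector, 3001, 3208 and 2897 in SAM1, and 3089, 3212 and 3113 in SAM2. The groups overlapped, and the log2 fold changes were -0.071 (95% interval -0.16 to 0.021, adjusted p = 0.148 from limma) and -0.022 (-0.12 to 0.070, adjusted p = 0.657 from limma). *Srp68* (chromosome 11, 116135989 to 116165412, 16 exons) was at 5906, 5816 and 5640 in Empty vector, 4749, 4842 and 4714 in SAM1, and 5585, 5486 and 5428 in SAM2. SAM1 was the low group, and the highest SAM2 library lay close under the lowest Empty vector library. The log2 fold change was -0.28 in SAM1 (SE 0.029, adjusted p = 1.19e-06 from limma) and -0.073 in SAM2 (SE 0.029, adjusted p = 0.0362 from limma). *Srp72* (chromosome 5, 77122530 to 77147784, 19 exons) had counts of 9388, 8709 and 9268 in Empty vector, 7663, 7299 and 7508 in SAM1, and 9558, 9268 and 9286 in SAM2. SAM1 was again low, and SAM2 overlapped Empty vector. *Srp72* fell by 0.28 on the log2 scale in SAM1 (SE 0.033, adjusted p = 4.34e-06 from limma), and its value in SAM2 was 0.039 (adjusted p = 0.307 from limma). The lines differed by 0.21 for *Srp68* (adjusted p = 4.13e-05 from limma) and 0.32 for *Srp72* (adjusted p = 2.68e-06 from limma). The heterodimer genes were at 82.4% and 82.1% of Empty vector in SAM1. The SAM2 call of *Srp68* did not hold in 10 of 18 alternative settings (log2 fold change -0.092 to -0.018, adjusted p from 0.0195 to 0.577 from limma, edgeR or DESeq2). It was lost without Empty vector replicate 1 (-0.059) or 2 (-0.070), SAM1 replicate 1 (-0.073), or SAM2 replicate 2 (-0.072) or 3 (-0.064). *Srp19* was called lower in SAM1 without Empty vector replicate 1 (-0.11, adjusted p = 0.0378 from limma) or SAM1 replicate 2 (-0.11, adjusted p = 0.0221 from limma), over alternatives that gave adjusted p from 0.000123 to 0.764.

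SEC61A1 is the pore-forming subunit of the Sec61 channel, and SEC61B and SEC61G are its small subunits, each with a single membrane span. *Sec61a1* (chromosome 6, 88480561 to 88495899, 12 exons) was the only member called higher with the deposited scaling, and quantile normalization added *Ssr1* in SAM1 (0.20) and *Srp72* (0.11, adjusted p = 0.0066 from limma) and *Ssr2* (0.083, adjusted p = 0.0371 from limma) in SAM2. Its counts were 18013, 17649 and 17151 in Empty vector, 18909, 18432 and 19027 in SAM1, and 19823, 20237 and 19606 in SAM2. The 3 groups did not overlap, with Empty vector lowest and SAM2 highest. The log2 fold change was 0.094 (SE 0.028, adjusted p = 0.00786 from limma) in SAM1 and 0.18 (SE 0.028, adjusted p = 7.65e-05 from limma) in SAM2. *Sec61b* (chromosome 4, 47474614 to 47483864, 4 exons) had counts of 1662, 2035 and 2008 in Empty vector, 1775, 1894 and 1649 in SAM1, and 1412, 1396 and 1406 in SAM2. Empty vector and SAM1 overlapped, and SAM2 lay below both. *Sec61b* fell by 0.43 on the log2 scale in SAM2 (SE 0.070, adjusted p = 9.39e-05 from limma). Its value in SAM1 was -0.098 (95% interval -0.25 to 0.053, adjusted p = 0.221 from limma), and the lines differed by -0.33 (adjusted p = 0.00109 from limma). *Sec61g* (chromosome 11, 16450320 to 16458507, 4 exons) was at 861.4, 909.7 and 942.8 in Empty vector, 761.2, 731.7 and 766.6 in SAM1, and 779.3, 753.8 and 729.3 in SAM2. Both lines lay below Empty vector and overlapped each other. The log2 fold change was -0.26 in SAM1 (SE 0.048, adjusted p = 0.000256 from limma) and -0.26 in SAM2 (SE 0.048, adjusted p = 0.000296 from limma), and the difference between the lines was 0.002, with a 95% interval from -0.10 to 0.11. The channel genes thus moved in different directions, the pore gene higher and *Sec61g* lower in both lines.

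Several of these values depended on a single library or on the scaling. Without Empty vector replicate 1, *Sec61b* was called lower in SAM1 too (-0.19, adjusted p = 0.00449 from limma, with 0.000106 to 0.586 over all alternatives). The difference between the lines for *Sec61a1* was 0.082 (adjusted p = 0.0216 from limma) and was not past the threshold without SAM1 replicate 2 (0.068), SAM2 replicate 1 (0.084) or SAM2 replicate 2 (0.069), nor with quantile normalization (0.032, adjusted p = 0.324 from limma, the highest of its alternatives), edgeR (0.082) or DESeq2 (0.086). Quantile normalization gave *Sec61a1* a larger rise, 0.27 in SAM1 and 0.30 in SAM2. Copies annotated as pseudogenes, with at least 90% identity over at least 50% of the coding sequence, numbered 8 for *Sec61g*, 3 for *Sec61b*, 1 each for *Srp9* and *Srp19*, and 0 for the other members. None of these copies was among the listed genes, and the aligner was allowed 20 hits per read, so how reads were shared with them is uncertain.

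SSR1 and SSR2 are the alpha and beta subunits of TRAP. *Ssr1* (chromosome 13, 38149556 to 38178224, 8 exons) had counts of 22003, 22537 and 22377 in Empty vector, 22597, 21921 and 22241 in SAM1, and 18010, 18095 and 17831 in SAM2. Empty vector and SAM1 overlapped fully, and SAM2 lay below both. The log2 fold change was -0.31 in SAM2 (SE 0.025, adjusted p = 1.12e-07 from limma) and -0.003 in SAM1 (95% interval -0.057 to 0.050, adjusted p = 0.907 from limma), and the lines differed by -0.31 (adjusted p = 2.45e-07 from limma). *Ssr2* (chromosome 3, 88483056 to 88497417, 5 exons) was at 8582, 8876 and 8618 in Empty vector, 8115, 8471 and 8063 in SAM1, and 8750, 8914 and 8703 in SAM2. SAM1 lay just below Empty vector, and SAM2 overlapped it. *Ssr2* gave a log2 fold change of -0.081 in SAM1 (SE 0.029, adjusted p = 0.0211 from limma) and 0.016 in SAM2 (adjusted p = 0.634 from limma), and the lines differed by 0.098 (adjusted p = 0.0104 from limma). With quantile normalization the difference of *Ssr2* was 0.042 and not past the threshold (adjusted p = 0.285 from limma, the highest of its alternatives), and that of *Ssr1* was -0.37. The SAM1 call of *Ssr2* was lost without Empty vector replicate 2 (-0.066), SAM1 replicate 1 (-0.073) or SAM1 replicate 3 (-0.068), and in DESeq2 (-0.081, adjusted p = 0.0512, with 0.00145 to 0.276 over all alternatives). Quantile normalization turned both genes in SAM1, *Ssr1* to 0.20 (adjusted p = 5.68e-06 from limma, the lowest of its alternatives) and *Ssr2* to 0.041 (adjusted p = 0.276 from limma).

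**Figure D2:**
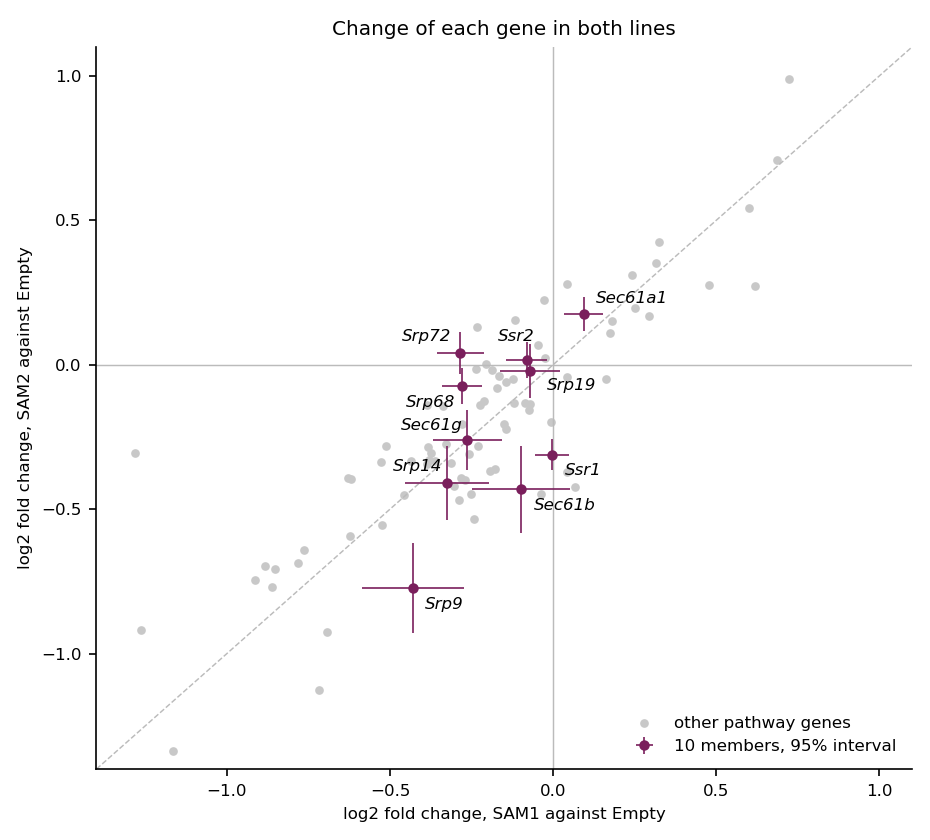
Log2 fold change of each gene in SAM1 (x axis) and in SAM2 (y axis) against the same Empty vector libraries, for the 10 members (purple, bars are 95% intervals) and 78 other genes of the pathway (grey); the dashed line marks equal change. *Srp9* lies lowest of the members at -0.43 and -0.77, *Sec61a1* is the only member above 0 on both axes beyond its intervals, and *Srp72* and *Ssr1* lie off the dashed line on opposite sides.

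Between the lines, 7 of the 10 members differed by the test, 4 higher and 3 lower in SAM2, against 60.3% of all genes (31.1% higher, 29.2% lower). Groups did not overlap for 8 members, against 68.2% of all genes. With the 6 libraries labelled Hnrnpk_SAM taken as 1 group, 5 members passed (1 higher, 4 lower), against 53.9% of all genes (26.8% higher, 27% lower), and the groups of the same number of members, 5, did not overlap, against 53.1%. They were *Srp9* (log2 fold change -0.60, SE 0.12, adjusted p = 0.0023 from limma), *Srp14* (-0.37, adjusted p = 0.00101), *Sec61g* (-0.26, adjusted p = 0.00126), *Srp68* (-0.18, adjusted p = 0.0459) and *Sec61a1* (0.14, adjusted p = 0.0174). This fit counts the difference between the lines as spread, and testing their mean within the fit of 3 groups called 8 members, against 74.6% of all genes. Without Empty vector replicate 3 the count was 3, since *Sec61a1* (0.12, adjusted p = 0.0833 from limma, with 8.11e-05 to 0.0833 over all alternatives) and *Srp68* (-0.20) were lost. *Srp68* was also lost without Empty vector replicate 1 (-0.16) or 2 (-0.17), or SAM1 replicate 1 (-0.16), 2 (-0.16) or 3 (-0.15). *Sec61b* gave -0.26 (adjusted p = 0.0845 from limma) and was called without SAM1 replicate 2 (-0.32).

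Levels were compared between genes as normalized counts per kilobase of the canonical transcript, since longer transcripts give more reads. In Empty vector the order ran from *Sec61a1* (5546 ± 136 per kb, SD, n = 3) through *Srp19* (3473 ± 148), *Ssr2* (2994 ± 55.2), *Srp72* (2516 ± 100), *Ssr1* (2382 ± 29.3), *Srp68* (2290 ± 53.5), *Srp9* (1971 ± 197), *Sec61b* (1546 ± 169) and *Srp14* (1530 ± 128) to *Sec61g* (433.7 ± 19.6). *Sec61b* and *Srp14* did not differ beyond their spread, and the gaps between the other neighbours were larger than the SD of either gene. *Srp9* and *Srp14*, whose products form a heterodimer, thus differed in Empty vector, and were at 1463 ± 151 and 1220 ± 93.9 per kb in SAM1. In SAM2 they were at 1149 ± 3.59 and 1149 ± 3.96 per kb, a match that rests on the transcripts taken. The order rests on the transcript taken, because the shortest and longest coding transcripts of *Ssr1* were 523 and 9378 bases and those of *Srp14* 663 and 3716 bases, and the isoforms expressed here were not measured. With the shortest transcripts, *Srp14* was at 8429 per kb and *Srp9* at 5993 per kb in Empty vector.

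The spread within groups was uneven. The SD of the log2 values of *Srp9* was 0.14 in Empty vector, 0.15 in SAM1 and 0.005 in SAM2, and *Sec61b* had 0.16, 0.10 and 0.008. *Srp14* behaved likewise, with 0.12, 0.11 and 0.005, while the median over all genes was 0.079, 0.072 and 0.045. The 3 genes were low in Empty vector replicate 1 and SAM1 replicate 3 and high in Empty vector replicate 2 and SAM1 replicate 2. Empty vector replicate 1 was the lowest of its group for 7 members, and SAM1 replicate 2 the highest of its group for 6. Deviations of libraries from their group went with transcript length. Genes of the shortest eighth (up to 1292 bases) had a median deviation of -0.058 in Empty vector replicate 1 and 0.077 in SAM1 replicate 2, and genes of the longest eighth of 0.077 and -0.088. By the canonical transcript, only *Sec61b* (1230 bases) of the 3 genes was that short. The shortest coding transcripts of *Srp9* (690 bases) and *Srp14* (663 bases) were also under 1292 bases, and the isoforms expressed here were not measured. *Srp9* (2098 bases, deviations -0.144 and 0.165) was in an eighth with medians of -0.024 and 0.025. *Srp14* (3652 bases, -0.135 and 0.125) was in an eighth with medians of 0.004 and -0.012. Between groups, the shortest eighth had a median log2 fold change of 0.10 in SAM1 and -0.092 in SAM2. When these length medians were taken out of each library, a setting chosen after seeing the data, *Srp19* turned from -0.022 to 0.066 in SAM2 (adjusted p = 0.0434 from limma, with 0.0434 to 0.996 over all alternatives). In that setting *Srp19* (-0.15, adjusted p = 0.000123 from limma) and *Sec61b* (-0.18, adjusted p = 0.00443 from limma) were called lower in SAM1, which made 9 members called, and *Srp68* was not called in SAM2 (-0.018, adjusted p = 0.577 from limma). *Srp19* was then called different between the lines (0.22) and *Sec61b* lower over both lines (-0.26), and *Srp68* was not called over both lines (-0.13). *Srp9*, *Srp14* and *Sec61g* remained lower in both lines in every alternative, between -0.58 and -0.36, -0.46 and -0.23, and -0.30 and -0.23 in SAM1.

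**Figure D3:**
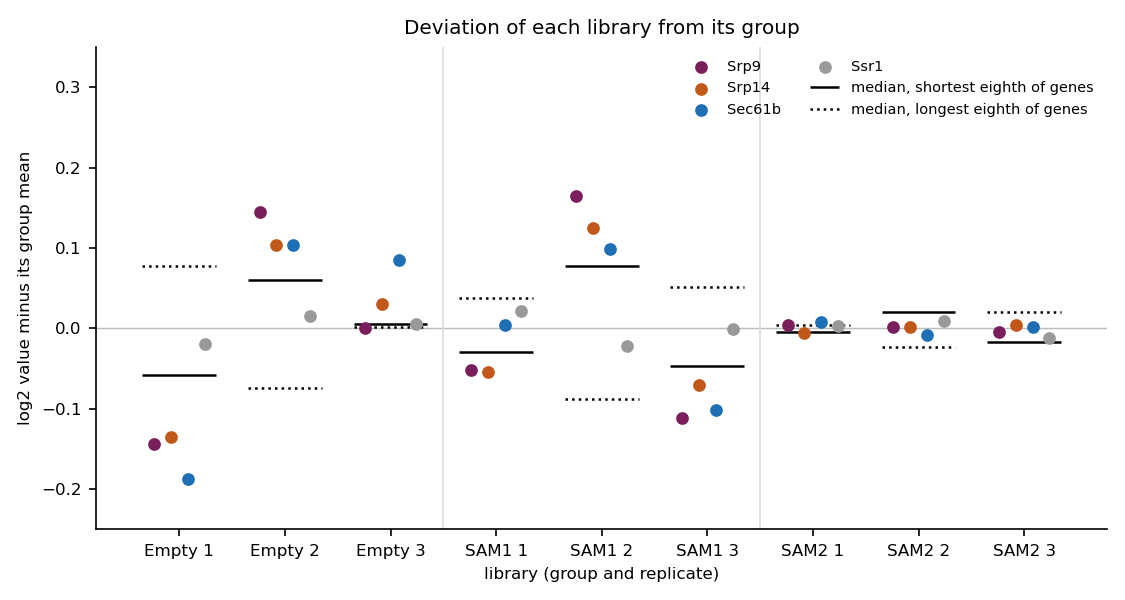
Log2 value of *Srp9*, *Srp14*, *Sec61b* and *Ssr1* in each of the 9 libraries minus the mean of its group (points), with the median deviation of the shortest (solid) and longest (dotted) eighth of genes by transcript length. The first 3 genes lie below 0 in Empty vector replicate 1 and above it in SAM1 replicate 2, on the side of the shortest eighth. By canonical transcript, only *Sec61b* belongs to that eighth. All 4 lie within 0.012 of 0 in SAM2.

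Changes of the members were also set beside those of the genes around them, since the medians of whole chromosomes lay off 0, at -0.22 in SAM1 and -0.18 in SAM2 for chromosome 1 and at 0.27 and 0.16 for chromosome 2. The 34 listed genes within 2 Mb of *Srp9* had a median log2 fold change of -0.36 in SAM1 and -0.37 in SAM2, and its flanking genes *Enah* and *Degs1* fell in both lines. *Srp9* (-0.43 and -0.77) thus lay near its surroundings in SAM1 and 0.40 below them in SAM2. *Srp14* went against its neighbourhood, where the median of 53 genes was 0.47 and 0.33. Its neighbour *Eif2ak4*, which overlaps an exon of *Srp14* on the opposite strand, rose by 0.48 and 0.45. *Sec61g* also lay on the other side of 0 from the 13 genes around it (0.22 and 0.52). *Sec61a1* lay close to its surroundings, with 45 genes at a median of 0.092 in SAM1 and 0.22 in SAM2 and a median of chromosome 6 of 0.13 and 0.24. For the difference between the lines (SAM2 minus SAM1), the median of the 17 genes around *Ssr1* was -0.13 beside -0.31 for *Ssr1*, and that of the 20 around *Srp72* was 0.054 beside 0.32 for *Srp72*. Exons of *Srp19*, *Sec61a1* and *Ssr1* overlap genes on the opposite strand too, and whether reads were counted by strand is not given in the sources used here, so reads of such pairs cannot be told apart.

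**Figure D4:**
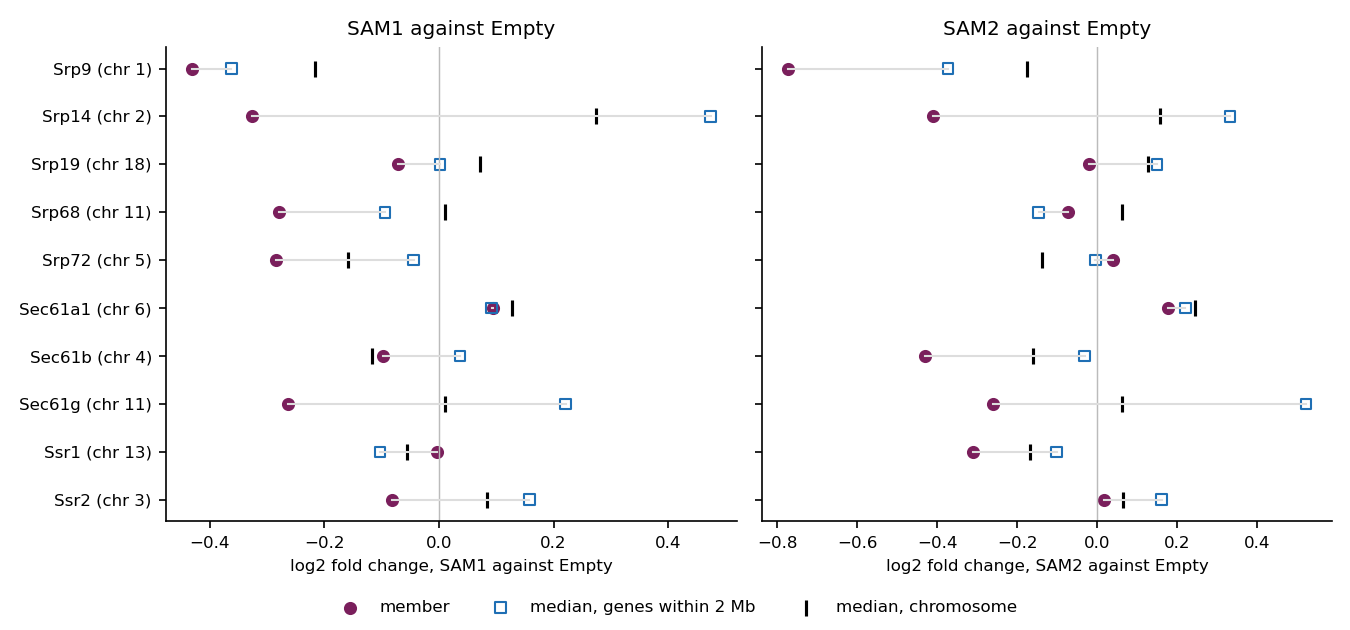
Log2 fold change of each member (filled circle) in SAM1 (left) and SAM2 (right) against Empty vector, with the median of the listed genes within 2 Mb (square) and of its chromosome (tick). *Srp14* and *Sec61g* lie below 0 while the genes around them lie above it, and *Sec61a1* lies beside its surroundings.

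The genes that act with SRP and Sec61 were read from 9 lists, of which 78 of 80 genes were listed in the table. Of these, 13 were called higher and 54 lower in SAM1, with a median log2 fold change of -0.23, and 16 higher and 51 lower in SAM2, with a median of -0.25. Of all genes tested, 37.3% were called higher and 36.9% lower in SAM1, and 35.2% and 35.3% in SAM2, and the counts of each list stand against these shares. The SRP receptor genes fell in both lines, *Srpr* by 0.53 and 0.34 on the log2 scale and *Srprb* by 0.23 and 0.28. *Srpr*, the alpha subunit that docks SRP, was at 14110, 14258 and 14235 in Empty vector, 10034, 9677 and 9824 in SAM1, and 11269, 11168 and 11280 in SAM2. *Srp54a*, for the signal-binding subunit, gave -0.28 and -0.21 and has near-identical copies (*Srp54b*, *Srp54c*), so its count is uncertain. Among 14 partners of the translocon, 12 were called lower and 1 higher in each line. *Tram1*, which contacts the entering chain, fell by 0.77 and 0.64, *Ccdc47*, of a complex that helps to insert multipass proteins, by 0.38 and 0.33, and the other TRAP subunits *Ssr3* by 0.15 and 0.21 and *Ssr4* by 0.38 and 0.29 (both chosen after their values were seen). The gene called higher was *Sec61a2*, the paralog of the pore gene, which rose by 0.60 and 0.54.

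Past the channel, the signal peptidase, which removes the signal sequence, had 4 of 5 genes lower and 1 higher in SAM1 and 3 lower and 1 higher in SAM2. *Spcs3* fell by 1.26 and 0.92 and *Spcs2* by 0.86 and 0.77, both accessory subunits, and *Sec11a*, a catalytic subunit, by 0.78 and 0.69. The gene called higher was *Sec11c*, the other catalytic subunit, which rose by 0.62 and 0.27 (chosen after its values were seen). Of 12 genes of the oligosaccharyltransferase, which adds N-glycans, 8 fell and 2 rose in SAM1 and 7 fell and 2 rose in SAM2, with *Ostc* at -0.91 and -0.75, *Magt1* at -0.53 and -0.55 and *Dad1* at 0.69 and 0.71. The ER lumen chaperones had 12 of 14 genes lower and 1 higher in each line. Among them were *Sdf2l1*, a partner of the chaperone BiP (-1.17 and -1.34), *Hyou1*, an exchange factor of BiP (-0.85 and -0.71), and *P4hb*, a protein disulfide isomerase (-0.62 and -0.59).

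The ER membrane protein complex, an insertase, had 2 of 9 listed genes higher and 5 lower in SAM1 and 3 higher and 4 lower in SAM2, with *Emc10* at -0.88 and -0.70, *Emc3* at -0.51 and -0.28 and *Emc1* at -0.26 and -0.31. The 7 genes of tail-anchor insertion had 2 higher and 3 lower in SAM1 and 1 higher and 5 lower in SAM2, and *Bag6*, which captures tail-anchored proteins, rose by 0.32 and 0.35 while *Get4* fell by 0.36 and 0.33. Of the 3 genes of the nascent chain complex, which keeps SRP from chains without a signal, all fell in SAM1 and 2 in SAM2, *Btf3* by 0.39 and 0.34 and *Naca* by 0.21 and 0.13. The COPII coat, which carries cargo out of the ER, had 4 of 10 genes higher and 3 lower in SAM1 and 7 higher and 3 lower in SAM2, with *Sec24a* at 0.72 and 0.99, *Sec24c* at 0.24 and 0.31 and *Sar1a* at -0.33 and -0.28. All calls are from limma over the 15184 genes.

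**Figure D5:**
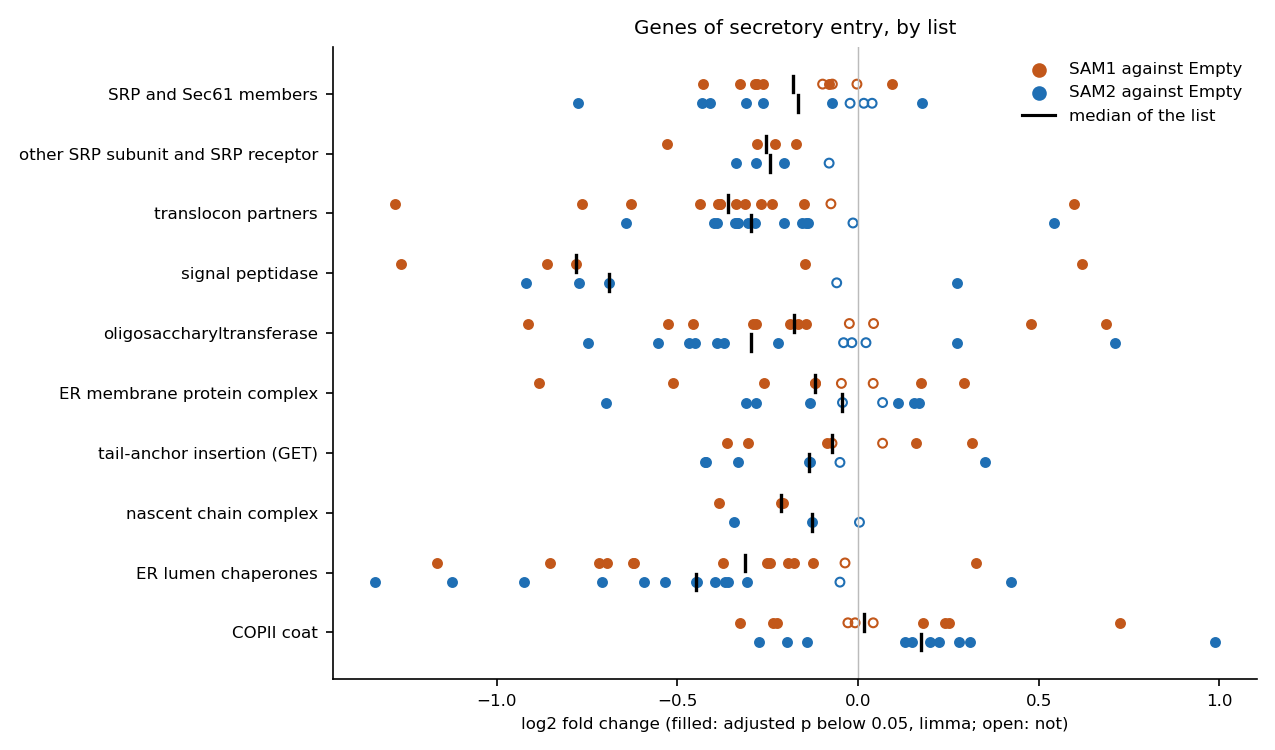
Log2 fold change (x axis) of the listed genes of each list in SAM1 (orange) and SAM2 (blue) against Empty vector; filled points passed the limma test, open points did not, and black ticks are medians. Translocon partners, signal peptidase and ER lumen chaperones lie mostly below 0, and the median of the COPII coat is above 0 in both lines.

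The genes closest to *Srp9*, the member with the largest change over both lines, were *Cdkn2a*, *Tmsb4x* and *Churc1*, by the root mean square difference of centred log2 values over the 9 libraries (0.0484, 0.0536 and 0.0604). *Cdkn2a*, which encodes the cell cycle inhibitors p16 and p19Arf, was at -0.42 in SAM1 and -0.74 in SAM2, and *Tmsb4x*, for the actin-binding peptide thymosin beta 4, at -0.33 and -0.72. Among the members, *Srp14* stood nearest to *Srp9* (0.155, rank 397 of all genes), followed by *Sec61b* (0.166, rank 523), and *Sec61a1* was the farthest (0.404, rank 7393).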

How the data were processed

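PolyA+ RNA of the 9 MEF libraries was made into strand-directional libraries and read as pairs of 43 bases. Per the labels and the methods, the authors checked reads with FastQC 0.11.0, aligned them to GRCm39 with TopHat2 and Bowtie2 (3 mismatches, 20 multihits), counted genes with HTSeq, divided the counts by DESeq2 size factors and kept genes above 10 in at least 30% of samples. What they deposited is thus a normalized count signal and not raw counts. In 8 libraries all values checked, those below 1000 reads, were whole multiples of the value of 1 read (100%, tolerance 0.01). This gave the reads, and larger values were rounded to the nearest read. SAM2 replicate 1 was not recovered.

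From these values, log2(value + 1) was tested with limma 3.58.1 (trend, R 4.3.3), two-sided, with Benjamini-Hochberg adjustment over 15184 genes and a threshold of 0.05. A fit of 3 groups gave SAM1 and SAM2 each against Empty vector, and SAM2 against SAM1, and a fit of 2 groups compared both lines with Empty vector. Fold changes on this scale understate those of low genes. edgeR 4.0.16 and DESeq2 1.42.0 on the recovered reads, another pseudocount (10), a stricter filter, quantile normalization, a replicate block, no variance trend, the mean of the lines and libraries left out in turn were alternatives. Added after seeing the data were the removal of length medians and the fit without Empty vector replicate 1 and SAM1 replicate 2. The test was checked on simulated data. Libraries of a group differed by more than sampling noise (chi-square per gene 1.46 to 13.8). Coordinates and lengths are from GENCODE vM39, which holds 14791 of the gene names once and 68 repeatedly and lacks 325, and promoters from RefSeq.

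Named were the 10 members, up to 3 genes of each pathway list with the smallest adjusted p over both lines, the 3 genes most like the most changed member, *Hnrnpk* and flanking genes. Members and lists were chosen with earlier results of these data known. Genes that the filter removed were not analysed here.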

Additional observations from a re-analysis of the deposited data

Results flagged for a closer look

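The changes from Empty vector differed between SAM1 and SAM2 by the test of the difference itself for 7 members, given here as the log2 value of SAM2 minus that of SAM1. It was -0.34 for *Srp9* (adjusted p = 0.00112), -0.33 for *Sec61b* (adjusted p = 0.00109) and -0.31 for *Ssr1* (adjusted p = 2.45e-07), and 0.21 for *Srp68* (adjusted p = 4.13e-05), 0.32 for *Srp72* (adjusted p = 2.68e-06), 0.082 for *Sec61a1* (adjusted p = 0.0216) and 0.098 for *Ssr2* (adjusted p = 0.0104), all from limma. With quantile normalization the differences of *Sec61a1* (0.032, adjusted p = 0.324) and *Ssr2* (0.042, adjusted p = 0.285) were not past the threshold, and that of *Sec61a1* was not past it in edgeR (adjusted p = 0.0545) or DESeq2 (adjusted p = 0.0635) either. For each of the 7, all 3 SAM2 libraries lay on one side of all 3 SAM1 libraries. The test that picked the 7 used the same libraries, so this is not separate evidence. Groups did not overlap between the lines for 68.2% of all genes. Of all genes, 60.3% differed between the lines by the same test. What sets the lines apart was not tested, since each group is a single line.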

How the results depend on the processing

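Of the 730 values that the alternatives gave for the members, 665 kept their direction and their side of the threshold, 33 were no longer past it, 17 came past it and 15 turned. Of these 15, 3 were past the threshold in one of the fits, *Ssr1* (0.20) and *Ssr2* (0.041) in SAM1 with quantile normalization, and *Srp19* (0.066) in SAM2 with length medians removed, a setting chosen after seeing the data. The other 12 were past it in neither fit and within 0.062 of 0. With quantile normalization they were *Srp19* (-0.002) and *Sec61g* (-0.037) between the lines and *Ssr1* (0.019) and *Ssr2* (0.062) over both lines. *Sec61g* also turned between the lines in edgeR (-0.025), in DESeq2 (-0.021), without Empty vector replicate 1 and SAM1 replicate 2 (-0.019), and with 1 library left out (-0.022 to 0.026), as did *Ssr1* in SAM1 (-0.015 to 0.007) and *Srp19* in SAM2 (-0.058 to 0.000). The cause was not tested. With both lines taken as 1 group against Empty vector, 5 members were called, and 3 to 5 with a library left out. The mean of the lines in the fit of 3 groups, which takes the difference between the lines out of the spread, called 8. Of all genes, these fits called 8179, 6761 to 8133 and 11323. Leaving out a library gave 6 to 9 members in SAM1, 6 to 7 in SAM2 and 6 to 7 between the lines. Of all 15184 genes, 10734 to 11150, 10014 to 10893 and 8235 to 9492 were then called. Among the members called, quantile normalization moved the share that were higher from 14.3% to 28.6% in SAM1 and 37.5% in SAM2. Between the lines it went from 57.1% to 40.0%. Among all genes called, the share that were higher went from 50.3% to 46.5%, from 49.9% to 47.3% and from 51.5% to 51.3%. With the replicate block, 7 members were called in each line, 7 between the lines and 4 over both lines, where *Srp68* had an adjusted p of 0.0875 (limma, 2.47e-05 to 0.188 over all alternatives), and no other call of a member changed. Same-numbered libraries deviated together weakly (r from 0.00237 to 0.117, mean 0.053, 9 pairs). The mean was -0.0265 over the 18 pairs of unlike number. Of 9 libraries, 8 correlated best with a library of their own number. The labels name no pairing, and what same-numbered libraries share was not tested. edgeR on the recovered reads lost 1 member call over 40 values and DESeq2 3. At these depths, the lowest member value in any library was 729.3, for *Sec61g*.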
